A study of Mus musculus with 16 samples.

Results

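R-loops of wild-type (WT) NIH/3T3 cells were compared before and after digestion of linear RNA. NIH/3T3 is a mouse embryonic fibroblast line, and the series also holds a line with Xpo4 knocked out by CRISPR (KO), which encodes exportin 4, a receptor for export from the nucleus. Of the 16 samples of the series, 4 were chosen because their labels give them as WT immunoprecipitates, 2 without RNase R (RNase R-) and 2 with RNase R (RNase R+). Peak lists were at hand for these 4 and for 4 KO immunoprecipitates, which are used below only as values set beside the WT ones, and the 8 inputs were not analysed here. All 4 WT samples lacked the knockout, and RNase R was the labelled difference between them. Genomic DNA was cut with 4 restriction enzymes, incubated for 1.5 h with buffer alone or with 10 U of RNase R, and pulled down with the S9.6 antibody (DRIP-seq). The 4 WT lists held 6679 of the 77297 peaks of the series. The labels do not say that replicates 1 and 2 came from separate cultures, so the spread between them may be technical, and peak lists of DNA hybrids give no check of the labelled cell line by its marker genes.

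An R-loop is a stretch of DNA in which RNA has paired with its template strand and left the other DNA strand unpaired. R-loops form behind RNA polymerase on transcribed genes, and also at telomeres, satellite repeats, ribosomal RNA genes and mitochondrial DNA, where the RNA is repeated or abundant. S9.6 recognises hybrids of DNA and RNA whatever the RNA, and RNase R is an exonuclease that degrades RNA from its 3′ end, sparing circles that have no end. The study therefore called peaks of treated samples ciR-loops (circular RNA in the hybrid), and those that treatment removed liR-loops (linear RNA). A restriction enzyme can release a hybrid from the genome only where its site occurs, so tracts of short tandem repeats without a site stay together as long fragments.

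Peaks were called by the authors in each library on its own. The fold enrichment of a peak is its summit height, the number of fragments covering its highest point, over the level the caller expected there, with 1 added to both. A region is a stretch covered by overlapping peaks of the 4 WT lists. It is called kept when it had a peak in all 4 lists, lost when it had a peak in both RNase R- lists and in no RNase R+ list, and new when it had a peak in both RNase R+ lists and in no RNase R- list. A region without a peak is one that was not called, and its height in that library is unknown. The caller's lowest expected level, a measure of background, was 0.479 and 0.489 fragments per position in the RNase R- lists and 0.425 and 0.558 in the RNase R+ lists. All 3885 peaks of RNase R- replicate 1 carried names made for replicate 2, while 0 rows were identical between these replicates and 14 peaks had the same start and end. Both lists were therefore kept as separate libraries, and results without either one are given in the closing section.

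Sequences at a few summits are printed as examples of kept, lost and new regions. Each stretch is 160 bases around a summit on the plus strand of GRCm38 (RefSeq), with the restriction sites in capitals (TTAA for MseI, CTNAG for DdeI, AGCT for AluI and GATC for MboI, each of which reads alike on both strands). The first set was kept: a 51-bp repeat in an intron of Sos2 and a 39-bp repeat in Zswim6, and neither stretch holds a site.
Sos2 intron, chr12:69654124-69654283: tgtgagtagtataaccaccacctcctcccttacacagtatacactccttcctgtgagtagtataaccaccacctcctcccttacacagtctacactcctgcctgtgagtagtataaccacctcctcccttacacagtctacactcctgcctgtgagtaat
Zswim6, chr13:107858978-107859137: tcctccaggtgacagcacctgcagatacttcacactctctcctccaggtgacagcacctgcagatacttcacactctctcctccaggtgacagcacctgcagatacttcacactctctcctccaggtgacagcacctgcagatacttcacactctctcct

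The second set was lost and carries 2 and 7 sites. It holds the highest lost peak, in an intron of Cdk8, and the lost peak in an intron of Gphn. Neither matched the ribosomal RNA locus used for comparison below. That locus holds only part of the ribosomal RNA repeat, so a match to the rest was not tested. The intron position does not say which RNA was in the hybrid.
Cdk8 intron, chr5:146261086-146261245: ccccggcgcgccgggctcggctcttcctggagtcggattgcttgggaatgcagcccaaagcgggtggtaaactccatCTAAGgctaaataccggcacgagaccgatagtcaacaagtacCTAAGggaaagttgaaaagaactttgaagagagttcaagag
Gphn intron, chr12:78350922-78351081: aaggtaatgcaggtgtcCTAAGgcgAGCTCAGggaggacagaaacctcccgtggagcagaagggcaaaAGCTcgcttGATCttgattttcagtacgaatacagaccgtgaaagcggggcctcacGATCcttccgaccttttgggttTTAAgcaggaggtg

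The third set was newly called. It holds repeats in introns of Ulk4 and Sik3 and a 56-bp repeat outside genes on chromosome 5, with 2, 0 and 0 sites.
Ulk4 intron, chr9:121227040-121227199: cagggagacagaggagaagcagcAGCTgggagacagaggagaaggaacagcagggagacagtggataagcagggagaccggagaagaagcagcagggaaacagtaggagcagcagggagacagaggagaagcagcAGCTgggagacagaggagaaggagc
Sik3 intron, chr9:46138307-46138466: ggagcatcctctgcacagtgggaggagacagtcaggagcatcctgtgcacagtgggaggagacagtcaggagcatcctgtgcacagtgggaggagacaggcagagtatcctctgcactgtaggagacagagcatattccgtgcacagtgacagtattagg
chromosome 5 repeat, chr5:5945037-5945196: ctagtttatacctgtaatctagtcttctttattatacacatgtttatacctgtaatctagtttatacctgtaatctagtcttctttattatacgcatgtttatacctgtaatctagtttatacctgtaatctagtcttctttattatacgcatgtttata

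The first comparison asked how much of the R-loop signal of WT cells was called after RNase R. Without RNase R, 3885 and 2171 peaks were called (3028 ± 1212, SD, n = 2), and with RNase R 271 and 352 (311.5 ± 57.3, SD, n = 2). Both RNase R+ lists lay below both RNase R- lists, and the ratio of the geometric means was 9.40-fold fewer peaks (log2 ratio -3.23). Among peaks with a fold of at least 10 the log2 ratio was -1.38, and that of genes with such a peak -1.79. The ratio depended on the pair of libraries, with 14.3-fold and 11.04-fold fewer peaks against replicate 1 and 8.01-fold and 6.17-fold fewer against replicate 2. With 2 libraries against 2 the exact permutation test over 6 arrangements cannot go below p = 0.33 (two-sided), which is the p it gave here (Benjamini-Hochberg adjusted p = 0.38 over 15 tests). None of the 15 tests of this comparison could therefore pass a threshold, and 13 of the 15 quantities did not overlap between the treatments.

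Genes with a peak in their body numbered 1548 and 980 without RNase R (1264 ± 402, SD, n = 2) and 116 and 148 with RNase R (132 ± 22.6, SD, n = 2). That is a log2 ratio of -3.23, or 9.40-fold fewer genes (p = 0.33, exact permutation test, two-sided). Covered sequence differed less, and the treated peaks were wider. Covered length was 1380 and 789.1 kb without and 255.8 and 309.4 kb with RNase R, 3.71-fold less (log2 ratio -1.89, p = 0.33, exact permutation test). The median peak was 303 and 298 bp wide without and 427 and 439.5 bp wide with RNase R, a difference of 133 bp (p = 0.33, exact permutation test). Median summit heights were 9 and 10 fragments without and 16 and 19 with RNase R. The study states more uniquely mapped reads for both RNase R+ libraries than for both RNase R- libraries. By these totals the fewer peaks were called in the more deeply sequenced libraries. The caller's lowest expected level did not follow that order, at 0.479 and 0.489 without and 0.425 and 0.558 with RNase R. The depth at which the peaks were called is therefore not settled. Summit heights below are not scaled for read totals. Fewer hybrids and less of each hybrid recovered cannot be told apart from the lists.

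**Figure D1:**
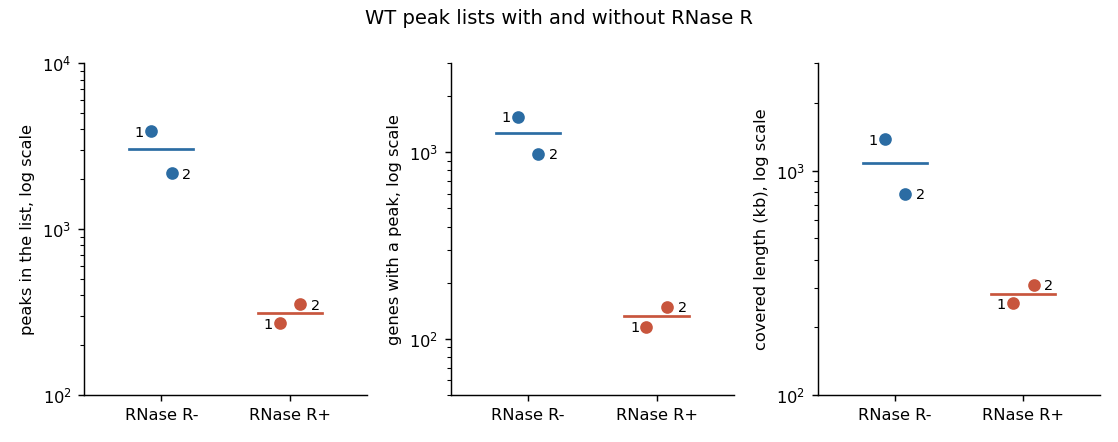
Number of peaks, number of genes with a peak and covered length in kb (3 panels, log axes) in each of the 4 WT lists. Points are libraries with their replicate number and bars are the means of 2, and in each panel both RNase R+ points lie below both RNase R- points.

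Few of the individual peaks were found again after treatment, and the replicates set the scale for that. Of the peaks of RNase R- replicate 1, 17.1% overlapped a peak of replicate 2, while 3.58% and 4.02% overlapped one of the RNase R+ lists. Of those of RNase R- replicate 2, 30.8% overlapped a peak of replicate 1, while 5.71% and 6.73% overlapped one of the RNase R+ lists. In neither RNase R+ list were 3706 of 3885 peaks (95.4%) of replicate 1 and 2005 of 2171 (92.3%) of replicate 2. Most of these were peaks that a second untreated library did not show either.

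Tall peaks were found again more often than low ones. Among peaks of RNase R- replicate 1 with a summit under 10 fragments, 5.81% were found in the other replicate and 0.515% and 0.749% in the RNase R+ lists. Among those of 50 fragments or more, 92.0% were found in the other replicate and 56.0% and 55.2% in the RNase R+ lists. For replicate 2 the shares at 50 fragments or more were 99.2%, 55.5% and 56.3%. So nearly all tall peaks came back in a second untreated library and slightly over 55% came back after RNase R. Peaks were counted singly, so these shares lean on loci with many peaks. A satellite block on chromosome 9 held 16 and 15 RNase R- peaks in 5 kept regions. On scaffold JH584304, 3 kept regions held 6, 13 and 6 peaks of replicate 1 and 5, 11 and 4 of replicate 2. Each of these regions had 1 peak in each RNase R+ list. The caller's limit was stricter in the RNase R+ lists, but 91.0% to 97.7% of the RNase R- peaks had a p past the lowest p of the RNase R+ list they were set against, and 3.93% to 6.88% of those were found in it.

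**Figure D2:**
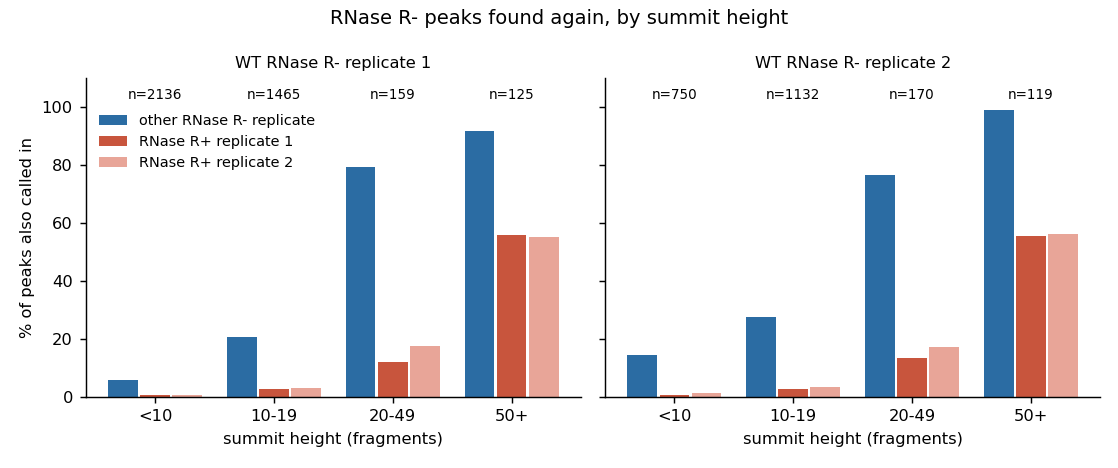
Share of the peaks of each WT RNase R- list (1 panel each) that overlap a peak of the other RNase R- replicate or of an RNase R+ replicate, by summit height in fragments, with the number of peaks above each bin. At 50 fragments or more, 92.0% and 99.2% were found in the other RNase R- replicate and 55.2% to 56.3% in an RNase R+ list. Peaks are counted singly, so neighbouring peaks that overlap the same treated peak each count.

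By position, most peaks of every class were not called after RNase R. Of RNase R- peaks with a summit within 1000 bp of a transcript start, 7.55% (replicate 1) and 11.4% (replicate 2) overlapped a peak of either RNase R+ list. The shares were 6.52% and 4.00% for exons, 3.21% and 5.65% for introns and 5.19% and 8.61% outside genes. The promoter peaks include those of annotated genes inside satellite sequence, such as Gm11168, which had a promoter peak in all 4 lists. The make-up of the lists by class was similar in both treatments. Promoter summits were 6.82% and 8.11% of the RNase R- lists and 7.01% and 6.25% of those with RNase R (difference -0.833 points, p = 0.67, exact permutation test, adjusted p = 0.71), and these groups overlapped.

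Exon summits were 1.18% and 1.15% without and 1.48% and 1.14% with RNase R (difference 0.138 points, p = 1, exact permutation test). Intron summits were 38.5% and 38.3% without and 36.2% and 36.9% with RNase R (difference -1.84 points, p = 0.33, exact permutation test). Summits outside genes were 53.5% and 52.4% without and 55.4% and 55.7% with RNase R (difference 2.54 points, p = 0.33, exact permutation test). For scale, promoters make up 6.05%, exons 3.18%, introns 38.3% and positions outside genes 52.4% of the genome, so the shares of both treatments were near those of the sequence itself, apart from exons. The signs of the promoter, intron and outside-gene differences turned when only protein-coding genes were used, to 0.881, 0.174 and -1.50 points.

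Sequence divided the lists far more than gene position did. A summit window, the summit with 150 bases to each side, was counted as a tandem repeat when at least 70% of its bases matched the base 1 repeat unit away. Such windows were 13.7% and 18.9% of the RNase R- lists and 63.0% and 66.3% of the RNase R+ lists, a difference of 48.3 points (p = 0.33, exact permutation test). Both RNase R+ lists lay far above both RNase R- lists, and of 2643 windows placed every 1 Mb along the genome 0.643% met this definition. In the KO lists the shares were 7.49% and 7.70% without and 18.99% and 22.1% with RNase R. Repeat units of 7 to 100 bases, as in minisatellites, made up 5.45% and 7.37% of windows without and 30.2% and 33.7% with RNase R.

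Shorter and longer units followed the same order. Units of 1 to 6 bases other than telomere repeats were 6.65% and 8.45% of windows without and 17.2% and 20.1% with RNase R. Units over 100 bases were 1.15% and 2.21% without and 11.8% and 9.59% with RNase R. The median GC content of summit windows was 42.2% and 43.0% without and 49% and 49.8% with RNase R, 6.81 points higher (p = 0.33, exact permutation test), but 1.34 points higher among peaks with a fold of at least 10. Repeat-masked sequence made up 64.9% and 64.6% of the windows without and 72.7% and 70.1% with RNase R, 6.71 points higher (p = 0.33, exact permutation test).

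Windows without a restriction site differed in the same way. None of the 4 sites was present in 9.64% and 12.2% of RNase R- windows and in 63.0% and 65.1% of RNase R+ windows, a difference of 53.1 points (p = 0.33, exact permutation test), against 0.870% of the windows placed along the genome. The uncut stretch around the summit, measured up to 2000 bp to each side, had a median of 215 and 230.5 bp without and 1004 and 1003 bp with RNase R (difference 780.5 bp, p = 0.33, exact permutation test), against 92 bp along the genome. The treated summits thus lay in longer stretches that the enzymes leave whole. In KO cells the medians were 237 and 243 bp without and 262 and 270 bp with RNase R. The part of fragment length in these results was not tested.

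**Figure D3:**
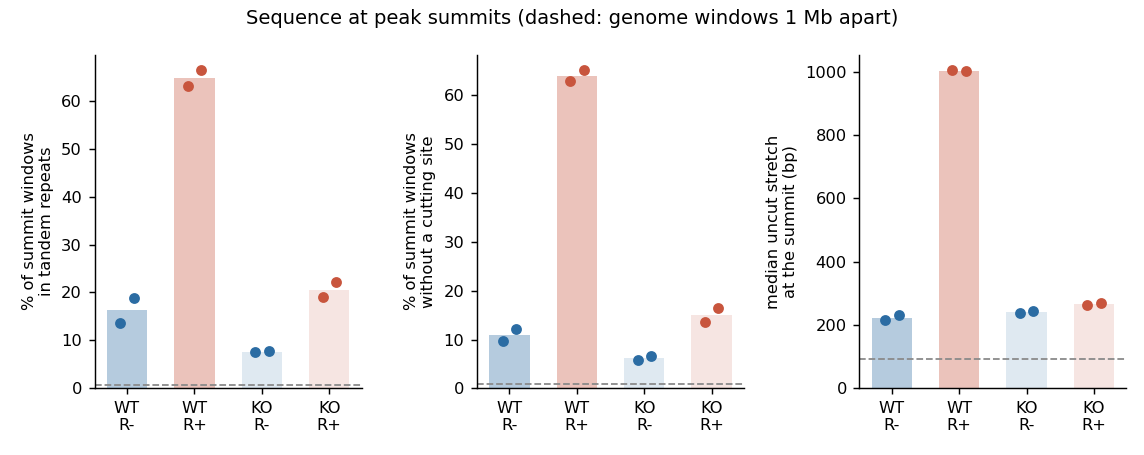
Share of summit windows in tandem repeats, share without any of the 4 restriction sites, and median uncut stretch in bp, for the WT and KO lists (points are libraries, bars are means of 2, dashed lines are windows placed every 1 Mb along the genome). The WT RNase R+ libraries stand at 63.0% to 66.3% tandem repeats and at 1003 and 1004 bp, far above the other groups.

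The caller's expected level differed too. It was over 3 times the lowest of its list, which marks positions where the caller saw much signal nearby or in its control, at 6.05% and 11.2% of RNase R- peaks and at 41.7% and 37.2% of RNase R+ peaks (difference 30.8 points, p = 0.33, exact permutation test). Which library served as control is not stated in the sources used here.

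Within the RNase R- lists, tandem repeats were also the peaks that were found again. Of tandem repeat peaks, 19.7% of replicate 1 and 25.1% of replicate 2 overlapped a peak of either RNase R+ list, against 1.42% and 2.43% of the other peaks. Tandem repeats replicated better among untreated lists as well, at 37.95% and 49.75% against 12.96% and 24.94%. At summits of 20 fragments or more the untreated replicates found nearly equal shares, 89.9% and 89.7% of tandem repeat peaks and 82.3% and 81.8% of the others. After RNase R, 62.0% and 63.2% of the former and 15.9% and 17.0% of the latter were found. Peaks were counted singly here too, so neighbouring peaks of a satellite block each count.

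Together the 4 lists gave 5613 regions. Of these 70 (1.25%) were kept, 524 (9.34%) lost and 79 (1.41%) new, and 3177 and 1473 were called in RNase R- replicate 1 or replicate 2 alone. Of the 630 regions called in both RNase R- lists, 83.2% were lost, 70 were kept and 36 were called in 1 RNase R+ list. Of the 162 regions called in both RNase R+ lists, 48.8% were new. These counts describe the call patterns and carry no test, since the contrast itself defines them.

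Kept and new regions were alike in sequence and lost regions unlike them. Tandem repeats made up 72.3% of kept, 22.4% of lost and 68.4% of new regions that had sequence. No restriction site was in 76.9%, 13.2% and 64.5% of them, and the median uncut stretch was 963, 217 and 1423 bp. By position, 12.9% of kept, 9.92% of lost and 6.33% of new regions had their summit at a promoter, and 55.7%, 51.9% and 58.2% lay outside genes. The 9 kept promoter summits lay at annotated genes inside satellite-like sequence, the mitochondrial genome, a nuclear copy of it, Fam102b and Dnah14. Windows with 10 or more telomere repeats were 9 of the kept, 8 of the lost and 0 of the new regions.

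Among the 70 kept regions enrichment differed in opposite directions by kind of sequence. Both RNase R+ folds lay above both RNase R- folds in 25 regions, below them in 17, and overlapped in 28. The mean log2 fold over all 70 was 3.20 and 3.19 without and 3.34 and 3.43 with RNase R, a difference of 0.19 (p = 0.33, exact permutation test). The log2 folds of the 70 regions correlated at r = 0.942 between the RNase R- replicates and at 0.851 between the RNase R+ replicates, and at 0.271 to 0.374 across treatments (Pearson, across regions, which share their libraries).

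**Figure D4:**
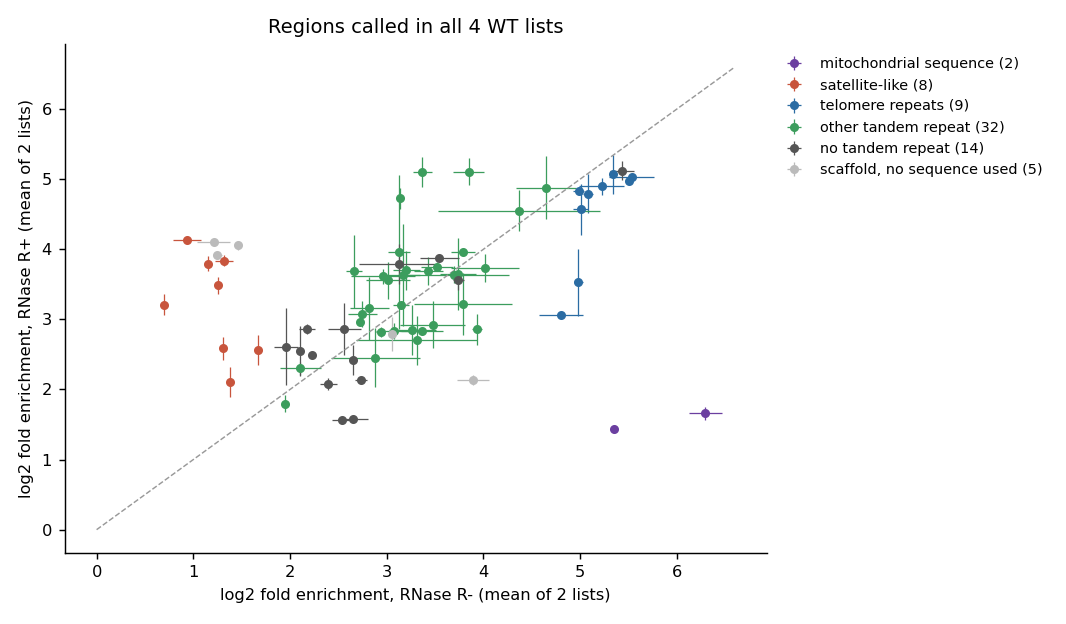
Log2 fold enrichment of the 70 kept regions without (x) and with RNase R (y), each point a region at the mean of 2 lists with bars to both replicates, coloured by kind of sequence, and a dashed line of equal values. Satellite-like regions lie above the line, mitochondrial sequence far below it and telomere repeats slightly below.

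In WT cells mitochondrial DNA was among the highest peaks without RNase R and had low folds with it, which was not so in KO cells. Without RNase R the whole mitochondrial genome was 1 peak, with a fold of 69.7 in replicate 1 and 88.6 in replicate 2 and summits of 2490 and 2714 fragments. With RNase R, 2 and 3 short peaks remained, with folds of 1.63 to 2.96 and 1.40 to 3.38 and summits of 124 to 183 and 120 to 259 fragments. The expected level there was raised, at 41.2 or more, so these summits stood far above the lowest expected level of the lists. They covered 3218 and 3509 bp, against 16299 and 16264 bp before. A nuclear copy of mitochondrial sequence at chr1:24611563-24616158, identical to the mitochondrial genome over its summit window, had folds of 40.6 and 41.1 without RNase R and at most 2.83 and 2.60 with it. Reads of the copy and of the organelle cannot be told apart over such a window. In KO cells the mitochondrial genome had folds of 460.8 and 528.8 without and 476.8 and 584.9 with RNase R. The nuclear copy had 133.8 and 127.2 without and 165.2 and 189.9 with RNase R there. The reason for this difference between the cell lines was not tested.

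Major satellite sequence, the repeat of mouse pericentromeres, went the other way. In the 8 kept satellite-like regions the median fold was 2.39 and 2.42 without and 11.3 and 9.33 with RNase R, and in all 8 both RNase R+ values lay above both RNase R- values. In the block chr9:2999996-3038308, 5 regions had folds of 1.58 to 2.66 without and 8.34 to 17.7 with RNase R. Its first region, chr9:2999996-3005058, had summits of 4762 and 4689 fragments without and 35940 and 42227 with RNase R. The unplaced scaffold JH584304 held 3 kept regions of the same order, with folds of 2.05 to 2.83 and 14.6 to 17.5. Another kept region of this scaffold went the other way, with 13.3 and 16.65 without and 4.63 and 4.19 with RNase R, and 11 regions of it were lost.

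Telomere repeats, which cap chromosomes and also lie inside them, kept their peaks with far lower summits. The median summit of the 9 kept telomeric regions was 1518 and 1469 fragments without and 214 and 288 with RNase R, and the median fold was 35.2 and 32.7 without and 28.9 and 27.9 with RNase R. At the highest of them (chr12:120028501-120029042, outside genes, 7255 bp from Tmem196) the summits were 1603 and 1701 without and 219 and 288 with RNase R. The expected level there was lower as well, 28.4 and 42.3 against 5.68 and 7.95 fragments, so the folds were 54.5 and 39.3 without and 32.9 and 32.3 with RNase R. Of the 9 regions, 5 had both RNase R+ folds below both RNase R- folds and 0 had them above.

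Telomeric stretches were also among the lost regions. A stretch in an intron of Ttc21b, a gene of ciliary transport, had folds of 45.5 and 20.98, and another in an intron of Lama1, a laminin chain, had folds of 35.9 and 17.5, and neither was called after RNase R in WT cells. In KO cells treated with RNase R they had folds of 58.5 and 51.9 and of 25.7 and 37.2.

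Other tandem repeats numbered 32 of the kept regions, inside and outside genes. The Sos2 intron, in the gene of a Ras activator, had summits of 470 and 467 fragments without and 406 and 525 with RNase R, and folds of 39.8 and 47.3 against 38.2 and 31.6. Its window has a 51-bp unit and matched it at 63.5% of bases, so it fell short of the 70% set for tandem repeats. The repeat in Zswim6 (chr13:107858209-107860042) had folds of 9.66 and 11.1 without and 29.6 and 40.1 with RNase R, and a repeat in an intron of Ndst3, a heparan sulfate sulfotransferase gene, 12.9 and 16.1 against 30.2 and 39.5. Both treated values were above both untreated ones at these last regions. At Mov10, the gene of an RNA helicase, the folds were 31.2 and 20.3 without and 21.5 and 40.2 with RNase R, and the treatments overlapped. A row of 8 kept regions, chr6:47653943-47685322, lay outside genes, 58602 to 88841 bp from Ezh2, the nearest protein-coding gene. It had folds between 3.58 and 9.43 in all 4 lists and was not counted as tandem repeats.

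**Figure D5:**
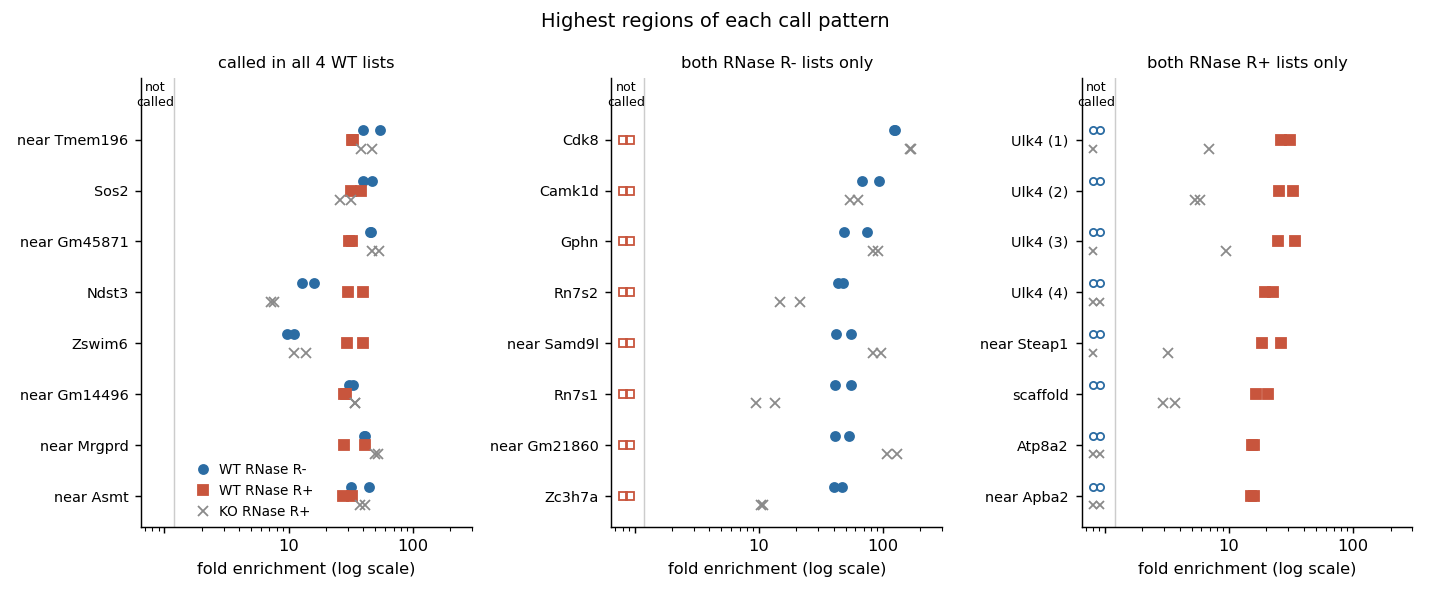
Fold enrichment (log axis) of the 8 highest kept, lost and new regions in the WT RNase R- lists (circles), WT RNase R+ lists (squares) and KO RNase R+ lists (crosses), named by the overlapping or nearest gene. Marks left of the grey line stand for libraries in which the region was not called. All 8 lost regions were called in both KO RNase R+ libraries.

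The 8 highest lost regions lay in introns, at genes of noncoding RNA, outside genes and at a promoter position. The last overlapped both Zc3h7a and Gm23935, which is annotated as a microRNA gene. The tallest by fold was the printed stretch in an intron of Cdk8, a kinase of the Mediator complex (chr5:146260937-146261368), with folds of 122 and 125 and summits of 180 and 185 fragments. Lost stretches in introns of Camk1d, a calmodulin-dependent kinase, and of Gphn, the scaffold protein gephyrin, had folds of 68.0 and 92.0 and of 48.9 and 74.2. An intron of Jarid2, a Polycomb cofactor, had 31.8 and 36.1. None of these 4 intron windows was a tandem repeat, and each held 4 to 8 restriction sites. In KO cells all of them were called after RNase R, with folds of 167 and 165 at Cdk8, 62.4 and 54.2 at Camk1d, 90.4 and 83.6 at Gphn and 39.9 and 50.3 at Jarid2. A lost region outside genes at chrY:90721899-90723452 was a tandem repeat, with a 31-bp unit and 9 restriction sites in its window, and had folds of 41.2 and 53.05, against 107 and 131 in KO after RNase R.

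The genes of abundant structural RNAs had no peak in WT cells after RNase R. The same held for 1938 of all 2052 genes with a peak in either RNase R- list, and for 404 of the 476 called in both. The folds that follow are those without RNase R. Rn7s1 and Rn7s2 encode 7SL RNA, the RNA of the signal recognition particle, and had folds of 41.2 and 55.7 and of 48.0 and 43.7. Rn7sk encodes 7SK RNA, which holds an elongation factor inactive, and had 19.1 and 24.9. A locus of ribosomal RNA on chromosome 17 (chr17:39842991-39848753) had 19.3 and 25.5, with summits of 474 and 511 fragments. A region outside genes at chr6:3200560-3201662, whose summit window is 96.7% identical to that locus, had 41.7 and 55.0. The locus used for comparison spans 5815 bp and holds only part of the ribosomal RNA repeat. Likeness to ribosomal RNA is therefore under-counted, and for the lost regions in Cdk8 and Gphn a match to the rest was not tested.

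Smaller values were seen at genes of U1 RNA, a splicing RNA, and of 5S ribosomal RNA. Rnu1a1 had folds of 9.77 and 10.96 and Gm22068 had 9.76 and 16.8. Lost regions whose summit window matched the 5S gene lay at n-R5s101 (6.80 and 6.48), n-R5s124 (5.81 and 5.13) and n-R5s209 (8.11 and 7.95). The annotated 5S gene n-R5s29 had 14.9 and 10.4 but was not among these matches. In all, 63 and 43 of 3881 genes annotated as ribosomal, small nuclear, small nucleolar or similar short RNAs had a peak without RNase R, 16 of them in both lists, and 0 and 0 had one with RNase R. In either RNase R- list that was 2.32% of the list, against 3.695% of all genes, and in either RNase R+ list 0.342% of all genes had a peak. This list was drawn up after the values had been seen. Copies of these genes are alike, so reads can be assigned to the wrong copy.

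Several of the same loci were called in KO cells after RNase R. The chromosome 17 ribosomal locus had folds of 18.9 and 19.5 in the KO RNase R+ lists, Rn7s1 13.5 and 9.52 and Rn7s2 21.3 and 14.8, while Rn7sk was called in neither. Of the structural RNA genes, 160 had a peak in either KO RNase R+ list and 194 in either KO RNase R- list. Malat1, a nuclear long noncoding RNA, had folds of 11.4 and 9.40 in the WT RNase R- lists and was not called after treatment, against 93.04 and 63.65 in KO after treatment. An exon of Lars2, the mitochondrial leucyl-tRNA synthetase gene, had 23.6 and 29.2 in WT before treatment and no call after it, against 244 and 268 in KO after treatment.

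Globin genes, which are genes of red blood cells, were also among the lost regions. Hba-a1 had folds of 37.6 and 26.0, Hba-a2 31.2 and 33.6, and Hbb-bs had 2 regions with folds of 15.9 to 18.9. Of 7 globin genes, 3 and 3 had a peak without RNase R and 0 and 0 with it. Of all genes, 3.695% had a peak in either RNase R- list and 0.342% in either RNase R+ list. Of the 2052 genes with a peak in either RNase R- list, 1938 had none with RNase R, so the loss at 3 genes says little. No KO list had a peak at any of the globin genes, with or without RNase R, against 21.3% of all genes in either KO RNase R- list. The origin of the globin peaks was not tested.

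Among the 524 lost regions as a whole, the median fold was 7.44 and 7.59 and the median summit 13 and 13 fragments. KO cells set them in context. Of the lost regions 243 were called in both KO RNase R- lists, and of those 131 were called in both KO RNase R+ lists, 51 in 1 and 61 in neither. Of the 70 kept regions 44 were called in both KO RNase R- lists, and 36 of those in both KO RNase R+ lists. In no KO list were 5 kept, 139 lost and 45 new regions.

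New regions were mostly tandem repeats, and some lay in rows. Their median fold was 9.45 and 9.61 and their median summit 21 and 27 fragments, and 33 of the 79 fell into 8 clusters. The highest was in Ulk4, the gene of a kinase-like protein, where 4 regions of an intron (chr9:121220004-121239598, repeat units of 112 and 286 bp) had folds of 19.7 to 33.9. Their summits were 27 to 53 fragments in replicate 1 and 37 to 82 in replicate 2. Elsewhere in the 321.8 kb of Ulk4 RNase R- replicate 1 had 1 peak, with a fold of 6.09, so the gene itself was called there. In the KO lists the 4 regions had folds of at most 9.52 or were not called.

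Sik3, a salt-inducible kinase gene, held 3 new regions (chr9:46132601-46138658) with folds of 7.63 to 26.0 and had no peak without RNase R. The chromosome 5 repeat (chr5:5944806-5945267, 195480 bp from Steap1) had the tallest summits among the highest new regions, 529 and 705 fragments, and folds of 18.5 and 26.0. The longest row, 10 regions at chr7:64466876-64495400 near Apba2, had folds of 6.43 to 20.3, and 8 regions at chrX:170809690-170849907 near the end of chromosome X had 5.10 to 13.9. The regions of a row are neighbours and may share one repeat, so the regions are not independent.

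Atp8a2, a phospholipid flippase gene, held 2 new regions over a 3-bp repeat with folds of 9.38 to 16.0, and Klhl18 held 2 with 7.72 to 13.5. Further new regions lay in introns of Sipa1l1 (folds of 13.3 and 14.1), Elavl3, a neuronal RNA-binding protein gene (11.2 and 11.9), Thada (10.8 and 14.1), Stx3, a syntaxin gene (10.8 and 11.9), and Dmd, the dystrophin gene (6.22 and 6.33). The shares of peaks by chromosome differed too. Chromosome X held 0.901% and 0.967% of peaks without and 5.90% and 5.97% with RNase R, and chromosome 9 held 2.73% and 2.72% without and 9.59% and 7.96% with it. Chromosome 8 went the other way, from 9.01% and 10.3% to 3.32% and 3.41%.

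At the level of genes, the lists were compared for each pair of replicates. Of 1103 protein-coding genes with a peak in RNase R- replicate 1, 50 also had one in RNase R+ replicate 1 and 64 in RNase R+ replicate 2. Of 671 such genes of RNase R- replicate 2, the numbers were 44 and 55. Newly called were 42 of 92 genes of RNase R+ replicate 1 against RNase R- replicate 1 and 61 of 116 genes of RNase R+ replicate 2 against RNase R- replicate 2. Between 4.53% and 8.197% of the genes with a peak thus still had one after treatment, whichever pair was taken.

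With both replicates required, 318 protein-coding genes (1.44% of 22028) had a peak without and 59 (0.268%) with RNase R. Of these, 32 had a peak in all 4 lists, 267 in both RNase R- lists and no RNase R+ list, and 17 in both RNase R+ lists and no RNase R- list. With either replicate enough, 1456 genes (6.61%) had a peak without and 149 (0.676%) with RNase R, and 88 were shared. Long noncoding RNA genes went from 373 (3.67% of 10155) to 24 (0.236%), with 14 shared.

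Many of the genes over kept regions lay in mitochondrial or satellite-like sequence. The kept regions overlapped 40 protein-coding genes, of which 13 are those of the mitochondrial genome and 11 are gene models inside satellite-like sequence. The other 16 included Sos2, Ndst3, Mov10, Dhx8, Epha3, Dnah14, Dynlrb1, Fam102b, Ppp1r9a, Ust, Cep128, F13a1, Dip2b, Ppp2r2b and Ppp6r3. The mitochondrial genome is a single region because its untreated peak spans it. Its treated peaks lay within positions 12207 to 16003 in replicate 1 and 11352 to 16020 in replicate 2. Not all 13 mitochondrial genes therefore had a treated peak, and 32 protein-coding genes had a peak in all 4 lists. The median length of protein-coding genes over kept regions, with all 13 counted, was 2.45 kb. It was 140.9 kb over lost regions, 124.4 kb over new regions and 17.3 kb over all protein-coding genes.

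Long genes had a peak more often than short ones in both treatments. Of 230 protein-coding genes of at least 500 kb, 150 (65.2%) had a peak in either RNase R- list and 18 (7.83%) in either RNase R+ list. Of 2263 genes of 100 to 500 kb the numbers were 566 (25.0%) and 53 (2.34%), and of 7854 genes under 10 kb 90 (1.15%) and 20 (0.255%). A longer gene offers more room for a peak, and positions outside exons dominate it. Lost regions lay more than once in Ptprd, a receptor phosphatase gene, Prkg1, a cGMP-dependent kinase gene, Camk1d, March1 and Sh3gl2, with 2 each.

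More lost regions per gene were found at a few other loci. Zfp600, a zinc finger gene, Sfi1, a centrosome gene, and Drg1 held 3 each, and the long noncoding genes Gm26573 and Gm26804 held 7 and 5. Some of these genes overlap and share regions. Over all zinc finger genes of the Zfp family, 31 of 394 (7.87%) had a peak in either RNase R- list and 3 (0.761%) in either RNase R+ list, close to the 6.61% and 0.676% of all protein-coding genes. Olfactory and vomeronasal receptor genes numbered 19 and 1 of 1468. Duplicated genes share sequence, so their reads may be split among copies.

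Genes chosen for what fibroblasts make had no peak in any WT list. This held for 86 genes of cytosolic ribosomal proteins, 20 genes of the extracellular matrix such as Col1a1 and Fn1, and 20 genes of the actin cytoskeleton such as Actb. Of all protein-coding genes 6.61% had a peak in either RNase R- list and 0.676% in either RNase R+ list. In either KO RNase R- list 50, 17 and 18 of them had a peak, against 40.5% of all protein-coding genes. Of 67 histone genes, Hist1h2be had a peak in RNase R- replicate 1 with a fold of 5.41, and none had one after RNase R. Of 7 entries for abundant nuclear or structural RNAs, Malat1, Rn7sk and Lars2 had a peak in both RNase R- lists and Rpph1 in replicate 2, with a fold of 8.70, and 0 had one with RNase R.

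Host genes of circular RNAs, whose products RNase R spares, were looked at by name. Hipk3, Specc1, Nfix, Wwc1 and Adarb1, the hosts examined by the study, had no peak in any of the 4 WT lists, and 4 of these 5 had one in either KO RNase R- list, against 6.61% of all protein-coding genes in WT and 40.5% in KO without RNase R. Of 14 other known hosts, Rims2 had a peak in both RNase R- lists with folds of 5.96 and 5.12, Pvt1 in replicate 1 with 7.44, and Slc8a1 in replicate 2 with 7.39. None of the 14 had a peak after RNase R, and at 0.676% of all protein-coding genes with such a peak a list of this length says little. Xpo4 had no peak in any WT list.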

How the data were processed

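DRIP-seq peak lists of 4 WT libraries, with the 4 KO lists beside them, were analysed. The authors trimmed paired reads, aligned them to GRCm38 with Bowtie2, removed duplicates, reads with many mismatches and reads without a unique position (SAMtools 1.1 in the submitters' processing notes), and ran MACS2 per replicate at a q of 0.001. The control library is not given in the sources used here. The deposited fold enrichment is a ratio of summit height to expected level. The p and q of the deposited lists are −log10 values. The deposited score, an integer made from q, was not used. Columns for start, end and summit are positions.

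The summit height and the expected level were recovered as the whole number that fits fold and p under a Poisson distribution (all WT peaks, tolerance 0.002), a step tested on simulated data. The lists hold no read totals. The study states them, with more uniquely mapped reads in the RNase R+ than in the RNase R- libraries of WT, and they were not used to scale any value. With 2 libraries per group the precision is limited. Genes came from GENCODE M21, sequence from the RefSeq GRCm38 genome, and likeness to structural RNA, mitochondrial and satellite sequence from BLAST 2.17.0 (at least 100 bp at 85% identity). The ribosomal RNA sequence used held only part of the repeat, so likeness to it is under-counted. Scaffold peaks had no sequence assigned. Python 3.11.15, pandas 2.3.3 and SciPy 1.17.1 were used. Groups were compared by exact permutation tests over libraries. Named regions were the 8 highest of each call pattern by the lower fold of the 2 replicates, genes with 2 or more regions, and members of gene lists. The members and lists were chosen with earlier results of these data known, and those on tandem repeats, restriction sites, structural RNAs and globins after the values were seen. Alternatives covered filters on fold, q and expected level, overlap rules, gene sets, leaving out each library and pairing by replicate number. A few items are not reported here.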

Additional observations from a re-analysis of the deposited data

Results flagged for a closer look

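In WT and KO cells, 36 measures were set side by side, and 11 differed in opposite directions: both RNase R+ lists lay above both RNase R- lists in one genotype and below both in the other. These differences between genotypes were not tested. The share of peaks found in the other replicate was 31.2 points higher with RNase R in WT and lower in KO (difference -11.4 points). The other 10 were shares of peaks on a chromosome, of 21 compared. In WT the differences were 1.05 points on chromosome 2, -4.94 on 4, -6.28 on 8, 6.05 on 9, 1.68 on 14, -2.57 on 15, -3.64 on 17, -1.92 on 19, 5.00 on X and -0.315 on Y. In KO they were -1.29, 0.793, 0.660, -0.157, -0.273, 0.992, 0.965, 0.260, -1.26 and 0.301. In WT the new rows of regions in Ulk4 and Sik3 and the satellite block lie on chromosome 9, and 8 new regions lie in 1 row on chromosome X.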

How the results depend on the processing

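Of 265 values recomputed under alternatives, 226 kept their direction or stayed within a set limit, 27 moved and 12 reversed. For kept and new shares the limit was the SD between lists. For region counts it was a set ratio to the reported count, which is not a replicate spread. Keeping folds of at least 5 gave a kept share of RNase R- peaks of 3.10% (5.01% as reported, mean of 2 lists), a newly called share of RNase R+ peaks of 66.0% (58.2%) and 44 kept regions (70). At folds of at least 10 the log2 ratio of peak numbers was -1.38 and of genes -1.79, the GC difference 1.34 points, the promoter difference -4.73 points and the raised share 15.9 points higher, all in the same direction, and the masked share 16.6 points higher. The kept share, new share and kept regions were then 9.19%, 72.1% and 16, with 92 lost (524) and 36 new (79) regions, and covered length (log2 ratio 0.21), exon (-0.19 points), intron (6.76), outside-gene (-1.84) and kept-fold (log2 ratio -0.0552) differences reversed. A −log10 q of at least 5 gave a kept share of 6.79%. Without raised expected levels the kept share was 1.70%, the new share 67.2%, with 11 kept and 32 new regions, and exon (-0.0742), intron (4.13) and outside-gene (-0.588) differences reversed. The raised share itself is 0 by construction there and is not given. With protein-coding genes alone promoter (0.881), intron (0.174) and outside-gene (-1.50) differences reversed. Without tandem repeats the kept share was 2.15%, the new share 65.9%, with 21 kept, 400 lost and 24 new regions. Summits within 250 bp gave 3.06% and 65.6%, an overlap of at least 50% a new share of 60.9%, and peaks widened by 500 bp 54.2%.

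Leaving out 1 library gave log2 ratios of peak numbers of -3.65 to -2.81, of genes of -3.56 to -2.90 and of covered length of -2.29 to -1.49. Kept shares were then 3.80% to 6.22% and new shares 56.8% to 65.1%, with 76 to 95 kept regions. With 1 list left of a treatment, that list alone decides, so lost regions numbered 3706 without RNase R- replicate 2 and 2005 without replicate 1 (range 536 to 3706), and new regions 210 without RNase R+ replicate 1 and 154 without replicate 2 (range 85 to 210). Exon differences ranged from -0.0314 to 0.308 points and reversed without RNase R+ replicate 1. Tandem repeat shares differed by 45.8 to 50.9 points.

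Under the replicate block the log2 ratio of peak numbers was again -3.23 (exact sign-flip test over 2 pairs, p = 0.5, its smallest). The correlation of same-numbered deviations was -0.313 over 70 regions. These regions share their libraries, so the value cannot decide whether replicate numbers pair the libraries. The replicate block and the crossed pairing, chosen after seeing the data, each gave 0 calls, as did the unblocked tests. Which peaks fall under the caller's limit depends on depth, and a region not called may still hold signal. The read totals stated by the study are higher for the WT RNase R+ libraries. The causes of the changes above were not tested, apart from smaller numbers of peaks under filters.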
